A study of Mus musculus with 207 samples.

Results

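The nuclear genes for the subunits of the respiratory chain and ATP synthase were examined in single beta cells of old and young mice. Members were chosen by symbol as protein-coding nuclear genes that begin with Nduf (without the Ndufaf assembly factors), Sdha to Sdhd, Uqcr, Cox4 to Cox8 or Atp5 (without Atp5s). The rule found 88 genes among 44448 rows, of which 41 belong by symbol to complex I, 4 to complex II, 8 to complex III, 18 to complex IV and 17 to complex V. The rule itself uses no measured value. Islet cells of male Mus musculus were caught singly in a microfluidic chip, which also turned their RNA into amplified cDNA, and each cell became 1 library. The old group holds 69 cells from animals of 26 months and the young group 138 cells from animals of 3 months. The labels give no strain, genotype or treatment for either age and name no animal, so how many animals gave the cells is unknown and each age counts as 1 sample. No test between the ages was therefore made, every ± is the SD between cells, and every interval on a share of cells covers counting error only.

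The respiratory chain passes electrons from NADH through complex I, or from succinate through complex II, by way of ubiquinone and complex III to cytochrome c, and complex IV hands them to oxygen. Complexes I, III and IV pump protons across the inner mitochondrial membrane, and ATP synthase, also called complex V, makes ATP as protons flow back. In beta cells the ATP made from glucose closes potassium channels in the plasma membrane, which sets off insulin secretion. Complex II is built from nuclear genes alone, while each of the other complexes also takes subunits from the mitochondrial genome.

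Values are TPM, a share of transcripts that is divided by transcript length and scaled to a total of 1000000 in each cell. A cell's true RNA content is lost on this scale, and a high share of 1 transcript lowers all others. Fewer transcripts of a gene and more of every other gene therefore cannot be told apart. The 10 beta cell markers checked, led by Ins2 and Iapp, summed to between 314710 and 749967 TPM in the old cells (median 596553) and to between 158735 and 811264 TPM in the young cells (median 624464). All but 1 of these markers had a mean of 10 TPM or above, and Mafa, a beta cell transcription factor, averaged 0.395 TPM in old and 0.0239 TPM in young cells. Acinar, endothelial and stellate marker sums had a median of 0 at both ages. Macrophage markers reached 1000 TPM in 1 old and 5 young cells, duct markers in 5 old and 2 young cells, and alpha markers, which include Ttr, in 24 old and 57 young cells. Gcg itself averaged 30.6 TPM in old and 86.6 TPM in young cells, and 7 old and 0 young cells held 1000 TPM or more of Gcg, Sst, Ppy or Pyy. Measures along the cell numbers fell into 8 runs, defined after the data had been seen. In 4 of them mitochondrial rRNA and tRNA took between 0.252% and 0.398% of TPM and in the others between 0.987% and 2.72%, and these are called the low and the high kind. The low kind holds 40 old and 54 young cells, and the high kind holds 29 old and 84 young cells. Detection of a gene means a TPM of at least 1 in the cell, and the median number of detected genes was 4078 in old and 4292 in young cells.

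Promoter sequences are shown first, for some of the genes in which short stretches resembling known binding motifs were found. Nuclear respiratory factor 1 (NRF1), ETS-family factors such as GABP, and YY1 are the classical regulators of these genes in mammals. RefSeq (GRCm38.p6) gave a window of 250 bases before to 50 bases after the start site for 71 of the 88 genes, 76 windows in all. In the lines that follow the capitals mark the NRF1 letters GCGCATGCG, read on the strand of the gene or as their reverse complement.
Cox6a1: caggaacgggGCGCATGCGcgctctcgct
Uqcrc1: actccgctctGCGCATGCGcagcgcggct
Atp5g2: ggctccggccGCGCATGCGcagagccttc
Uqcr11: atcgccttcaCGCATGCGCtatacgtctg
Ndufa8: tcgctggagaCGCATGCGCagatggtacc
The Cox6a1 stretch lies on chr5:115349102-115349130 (minus strand), that of Uqcrc1 on chr9:108936668-108936696 (plus strand) and that of Atp5g2 on chr15:102671071-102671099 (minus strand). The stretch of Uqcr11 lies on chr10:80406808-80406836 and that of Ndufa8 on chr2:36049329-36049357, both on the minus strand. NRF1 letters were found in 8 of the 76 windows (10.5%), against 1.75% of all 32851 windows of this length and 3.84% of the 10836 windows of other protein-coding genes with a mean of 1 TPM or above. The same 9 letters read on both strands overlap almost fully in most of these windows, so a window was counted once. Ndufa11, Atp5k and Atp5l also held NRF1 letters, and their stretches are not printed.

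The YY1 letters AAGATGGCG were found in 7 windows (9.21%), against 1.40% of all windows and 3.22% of windows of the other expressed genes. All of these matches were on the strand of the gene, and in 6 of the 7 genes they began between 23 and 36 bases after the start site, inside the transcript. In the next lines the capitals mark those letters in the 6 genes.
Ndufa9: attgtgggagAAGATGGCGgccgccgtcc
Ndufc1: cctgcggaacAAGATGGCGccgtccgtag
Ndufs4: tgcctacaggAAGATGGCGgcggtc
Ndufs6: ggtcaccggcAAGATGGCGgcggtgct
Ndufs7: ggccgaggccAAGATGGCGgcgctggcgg
Atp5j2: ccaggacttcAAGATGGCGtcactcggtg
They lie on chr6:126849097-126849125, chr3:51408915-51408943, chr13:114388045-114388069, chr13:73328433-73328459, chr10:80249463-80249491 and chr5:145191500-145191528, in the order of the lines. The Ndufs7 gene is on the plus strand and the other 5 are on the minus strand. ETS letters (CCGGAAGT, either strand) were found in 5 windows (6.58%), against 3.89% of all windows and 8.75% of windows of the other expressed genes. At least 1 of the 3 motifs was found in 25.0% of member windows, against 6.69% of all windows and 14.9% of those of the other expressed genes. Members with any motif had a median level of 149.7 TPM and members without one 136.8 TPM, and their median log2 ratios of old over young were -0.15 over 19 genes and 0.06 over 50 genes. A match describes letters only.

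Subunit transcripts were abundant at both ages. The 88 genes summed to 13938 ± 4838 TPM in old cells (n = 69) and to 14125 ± 4607 TPM in young cells (n = 138), which is 1.39% and 1.41% of all TPM. The sum ranged from 4468 to 34564 TPM over old cells (median 13167) and from 6452 to 36170 TPM over young cells (median 13698), so the ages overlapped almost fully. Of the 88 genes, 83 had a mean of at least 1 TPM at either age and 79 at least 10 TPM. By the average of the old and young means, 53 reached at least 100 TPM. The median member stood at 143.3 TPM. Of the 83, 40 were detected in at least 90% of all cells and 79 in at least 50%.

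Complex I, the entry point for electrons from NADH, took the largest share of the summed subunit transcripts, with 39.5% in old and 38.5% in young cells. Complex V followed with 25.5% at each age, complex IV with 18.4% in old and 19.0% in young, complex III with 13.2% in old and 14.2% in young, and complex II with 3.30% in old and 2.78% in young cells. The order of the complexes was thus the same at both ages. It follows the number of genes in each complex except for complex IV, which has 18 genes, 1 more than complex V. Among genes with a mean of at least 1 TPM, complex IV has 14 and complex V 17, and the order holds without exception.

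Between the ages the totals of all 5 complexes differed by much less than the spread between cells. Complex I summed to 5507 ± 2093 TPM in old and 5442 ± 1794 TPM in young cells, a log2 ratio of 0.02. Complex II, which links the citrate cycle to the chain, summed to 459.6 ± 519.0 TPM in old and 393.0 ± 417.9 TPM in young cells (0.23). Complex III summed to 1840 ± 1046 TPM in old and 2005 ± 1010 TPM in young cells (-0.12). It was the complex with the lowest ratio, and the differences between single cells were still far larger. Complex IV, the oxygen-consuming end, summed to 2570 ± 1095 TPM in old and 2683 ± 952 TPM in young cells (-0.06), and complex V to 3561 ± 1567 TPM in old and 3601 ± 2013 TPM in young cells (-0.02). One young cell held 19790 TPM of complex V, the highest sum of any complex.

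**Figure D1:**
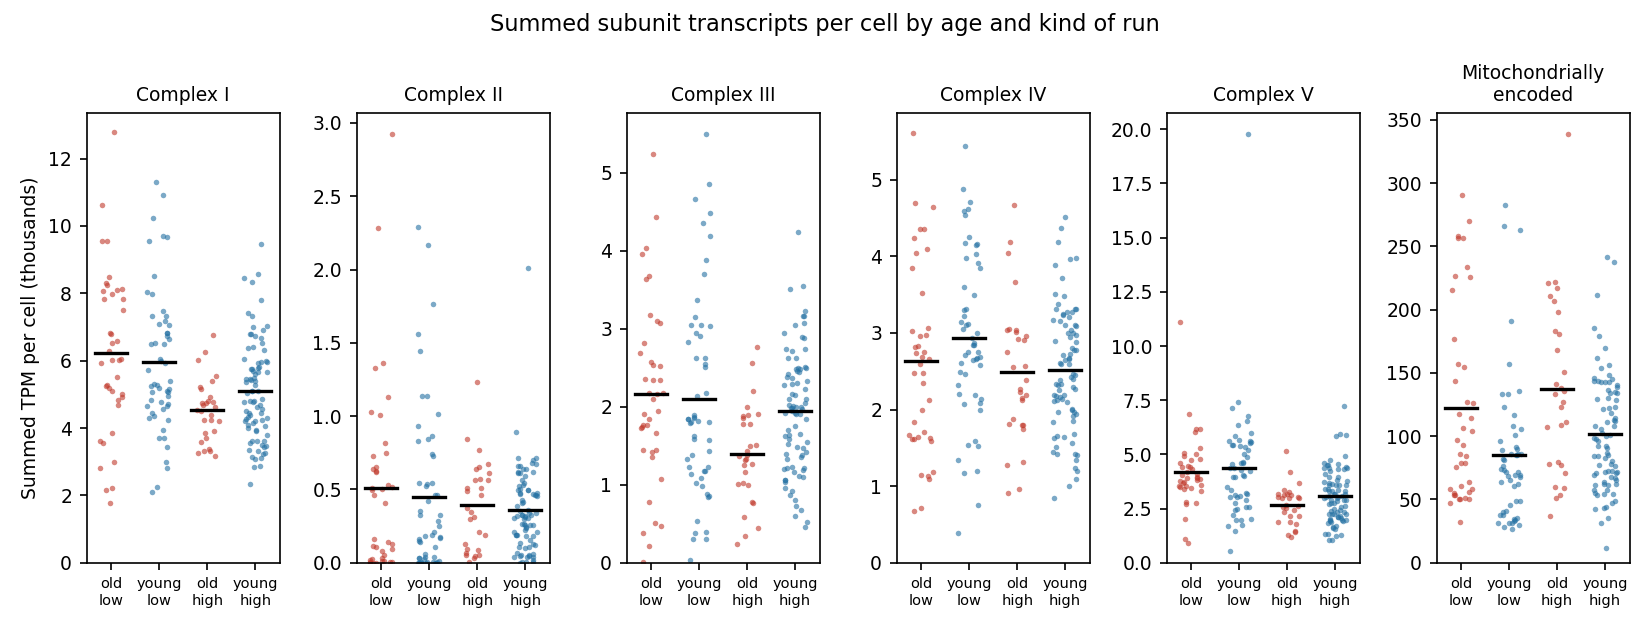
Summed TPM (axes in units of 1000 TPM) of the genes of each complex and of the 13 mitochondrially encoded genes, 1 point a cell, old cells in red and young cells in blue, split by the low and high kind of runs. Black lines are means: old and young overlap in every panel, and the mean of the mitochondrially encoded genes is higher in old cells of both kinds.

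The total of all members differed more between the kinds than between the ages. In the high kind all 88 genes summed to 11480 ± 2342 TPM in old and 13022 ± 3834 TPM in young cells (-0.18), and in the low kind to 15720 ± 5396 TPM in old and 15842 ± 5188 TPM in young cells (-0.01). The means of both old high runs, 11883 TPM in cells 139 to 158 and 10584 TPM in cells 191 to 199, lay between those of the young high runs, 10496 TPM in cells 55 to 86 and 14576 TPM in cells 87 to 138. Complex III had the lowest ratio of any complex in the high kind, with 1391 ± 623 TPM in old and 1941 ± 776 TPM in young cells (-0.48). Its run means there were 1464 and 1227 TPM in old and 1558 and 2177 TPM in young cells. With so few runs at each age this order says little, and how many genes share it was not counted. In the low kind complex III was level, with 2165 ± 1170 TPM in old and 2104 ± 1296 TPM in young cells (0.04). Why the kinds differ was not tested.

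**Figure D2:**
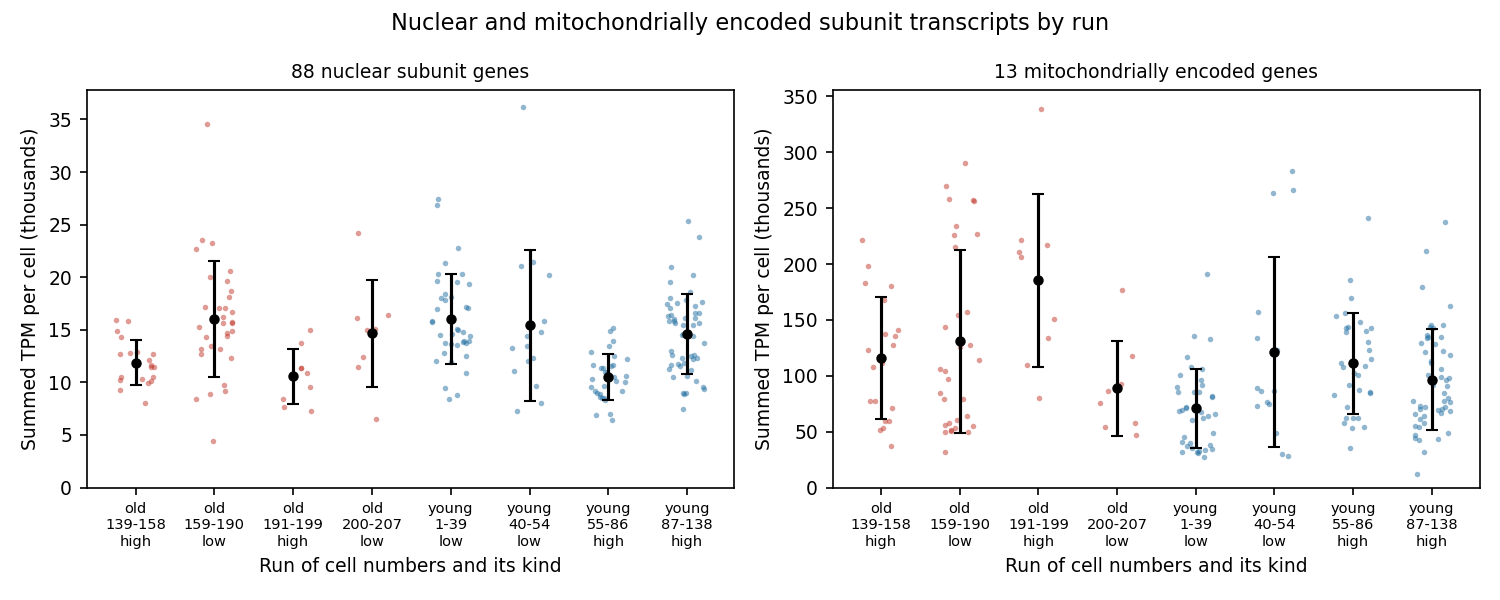
Summed TPM per cell (axes in units of 1000 TPM) of the 88 nuclear subunit genes (left) and the 13 mitochondrially encoded genes (right) in each run of cell numbers, old runs in red before young runs in blue, with the mean and SD in black. Nuclear means range from 10584 to 15988 TPM over old runs and from 10496 to 16007 TPM over young runs.

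Gene by gene, few members were 1.5-fold apart between the ages. Over the 83 members with a mean of 1 TPM or above, the median log2 ratio of old over young was -0.02, beside -0.10 over all 12155 genes that passed the same filter. In all, 41 members had a ratio above 0 and 42 below. At a 1.5-fold difference, 3 members were higher in old cells (3.61%; 16.8% of all genes) and 4 were lower (4.82%; 26.4% of all genes). Members are more abundant than most genes, so the counts were also taken among genes with a mean of 10 TPM or above, where 2 of 79 members were higher (14.2% of all such genes) and 3 were lower (21.0%). Cytosolic ribosomal proteins, which are also abundant, gave much the same counts as the members. Of 88 with a mean of 1 TPM or above, 3 were higher and 4 lower, with a median log2 ratio of -0.03. No member had run means that did not overlap between the ages, against 2.02% of all genes. Within the low kind 9 members were higher (22.2% of all genes) and 9 lower (31.8%), and within the high kind 3 were higher (20.0%) and 15 lower (31.9%). Ndufb6 and Cox7a1 were the 2 members past 1.5-fold in the same direction in both kinds. How many of all genes were so in both kinds was not counted, and Cox7a1 was detected in 4 old and 7 young cells.

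Averaging log values in place of TPM, which gives cells at 0 more weight, gave lower values for the members. On that scale the members' median difference was -0.25, beside -0.09 over all genes. There, 15 members were lower in old cells by 1.5-fold (18.1%; 7.28% of all genes) and 3 were higher (3.61%; 1.09% of all genes). Most of all genes are far less abundant than the members, and these shares were not taken among genes with a mean of 10 TPM or above. Cytosolic ribosomal proteins had a median difference of -0.03 on that scale. Old cells also held fewer detected members, with a median of 68 in old and 70 in young cells. The medians were 71 in old and 73.5 in young cells of the high kind, and 66.5 in old and 65.5 in young cells of the low kind, where old cells were not the lower ones. How far detection sets this shift was not tested.

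**Figure D3:**
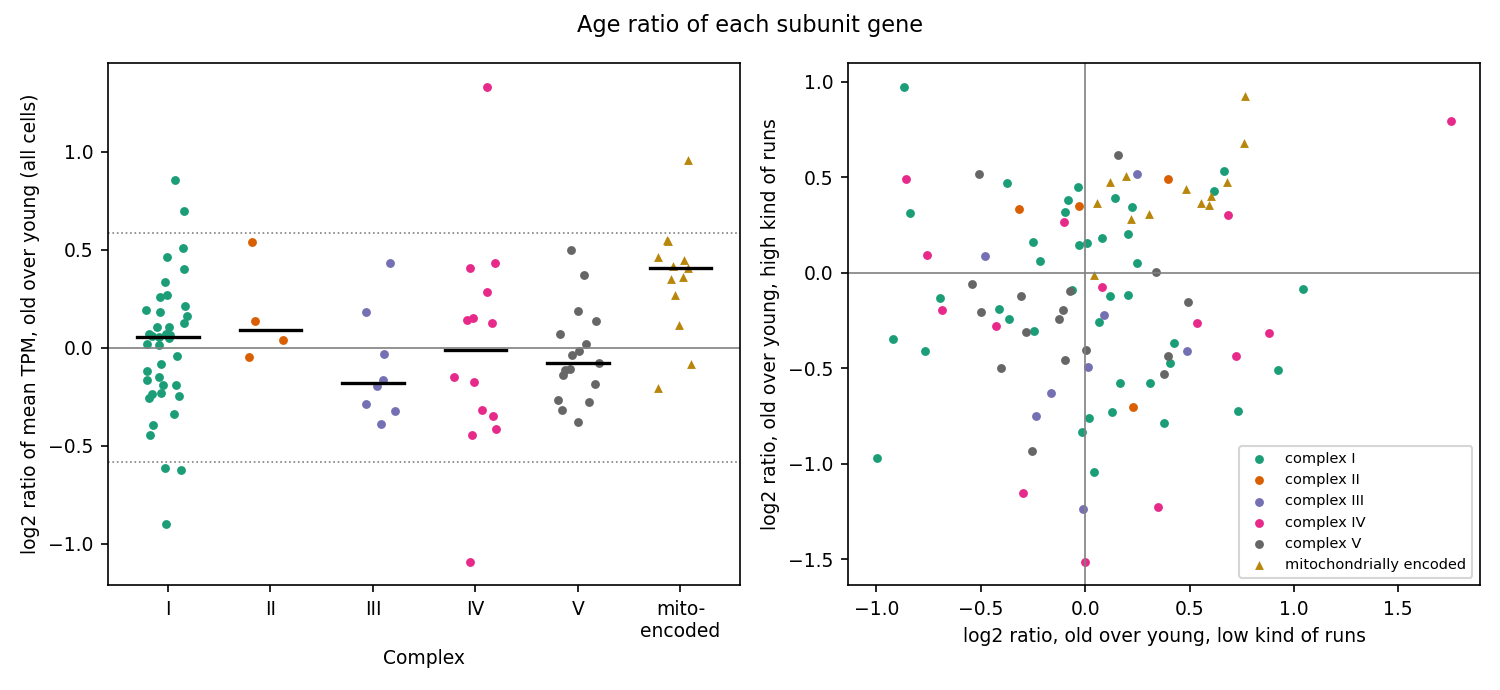
Left, log2 ratio of mean TPM (old over young) of each subunit gene with a mean of 1 TPM or above, by complex, with black lines at medians and dotted lines at 1.5-fold. Right, the same ratio in the low kind (x axis) against the high kind (y axis) of runs; the nuclear genes scatter to both sides of 0, with a median of 0 in the low and -0.20 in the high kind, and 12 of the 13 mitochondrially encoded genes lie above 0 in both kinds.

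Complex I has 7 nuclear core subunits that carry the flavin and iron-sulfur clusters, and the rest are supernumerary subunits that surround the core. The core genes were at a median of 66.4 TPM in old and 78.3 TPM in young cells, and 33 supernumerary genes at 118 TPM in old and 115 TPM in young cells. Ndufs1, the largest core subunit, was at 17.7 ± 55.5 TPM in old and 20.4 ± 46.8 TPM in young cells. It was detected in 30.4% of old cells (exact 95% binomial interval 19.9% to 42.7%) and in 48.6% of young cells (40.0% to 57.2%), the lowest share of any member of complex I that passed the filter. Its mean was 1.7 TPM in young cells 40 to 54 and 31.1 TPM in young cells 87 to 138. These are the young runs with the lowest and the highest median number of detected genes (2320 and 5104.5). That number was among the measures that defined the runs, so a contrast between these runs is partly built in.

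Ndufa1, a small membrane subunit needed for assembly of complex I, was the most abundant member of all and stood at rank 59 among all genes. It ranged from 0 to 1973 TPM over old cells (median 410.0) and from 0 to 2903 TPM over young cells (median 564.7). Its mean was 490.6 ± 459.4 TPM in old and 620.7 ± 481.9 TPM in young cells, a log2 ratio of -0.34 that was -0.02 in the low and -0.84 in the high kind. The ages overlapped over nearly the whole range.

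Of the 12 highest and lowest ratios among well-detected members, 8 were of complex I, which supplies 40 of the 83 genes. Ndufb11, an X-linked supernumerary subunit (chrX:20615326-20617619), ranged from 0 to 1145 TPM over old cells (median 301.7) and from 0 to 983 TPM over young cells (median 171.6). Its mean was 337.2 ± 289.6 TPM in old and 207.9 ± 199.8 TPM in young cells, a log2 ratio of 0.70. Old cells were higher in both kinds (0.66 low, 0.53 high), and the old run means were 261.4, 407.1, 278.5 and 313.2 TPM, against 297.6, 107.5, 152.2 and 203.8 TPM in the young runs. They overlap because the young cells 1 to 39 reached the level of the old runs. Without the old cells 159 to 190 the ratio was 0.41.

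Ndufb6, another membrane-arm subunit (chr4:40270591-40279421), went the other way. It ranged from 0 to 659 TPM over old cells (median 14.3) and from 0 to 3594 TPM over young cells (median 39.9). The means were 69.5 ± 128.4 TPM in old and 130.2 ± 349.3 TPM in young cells, a log2 ratio of -0.90 that was -0.997 in the low and -0.97 in the high kind. A single young cell held 20.0% of the young total, and without the highest cell of each age the ratio was -0.78. Without the young cells 40 to 54, whose mean was 369.1 TPM, it was -0.53, short of 1.5-fold.

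Ndufa10 had the highest ratio of this group, and its direction differed between the kinds. It was at 57.2 ± 158.2 TPM in old (median 1.79, highest 984) and 31.2 ± 74.3 TPM in young cells (median 0.577, highest 542), a ratio of 0.86. Low-kind cells gave 1.04 and high-kind cells -0.09, and 1 old cell held 24.9% of the old total. Ndufa8, which carries disulfide bonds and sits in the intermembrane space, was at 55.3 ± 131.2 TPM in old and 85.9 ± 173.0 TPM in young cells (-0.63), and at -0.26 without the old cells 159 to 190. Ndufs6, a zinc-binding subunit, was at 118.3 ± 164.5 TPM in old and 181.1 ± 226.9 TPM in young cells (-0.61). It was detected in 78.3% of old cells (66.7% to 87.3%) and 89.9% of young cells (83.6% to 94.3%). Its old mean was 235.5 TPM in cells 191 to 199, above every young run, so the direction was not shared by all runs.

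Ndufb5 and Ndufb3, both membrane-arm subunits, had ratios of 0.51 and 0.46, and Ndufb2, of the same arm, -0.44. Ndufb5 was at 0.92 in the low and -0.51 in the high kind, while Ndufb3 was above 0 in both. Ndufa4 is counted with complex I by its symbol, although later work places its protein in complex IV. It was at 153.1 ± 146.4 TPM in old and 172.0 ± 128.8 TPM in young cells.

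Complex II consists of the flavoprotein Sdha, the iron-sulfur protein Sdhb and the membrane anchors Sdhc and Sdhd. Sdhd was the highest of them, with 0 to 1602 TPM over old cells (median 49.0) and 0 to 1931 TPM over young cells (median 35.2). Its mean was 196.8 ± 341.0 TPM in old and 135.3 ± 252.7 TPM in young cells, a ratio of 0.54 that was 0.40 in the low and 0.49 in the high kind. Sdhb was at 117.0 ± 248.8 TPM in old and 121.0 ± 176.4 TPM in young cells, Sdhc at 80.0 ± 114.3 TPM in old and 72.8 ± 118.6 TPM in young cells, and Sdha at 65.9 ± 102.5 TPM in old and 64.0 ± 107.7 TPM in young cells. With all cells pooled the catalytic pair was level between the ages and the anchors had ratios of 0.13 and 0.54. Across alternative settings and subsets of cells, the Sdhb ratio ran from -0.72 to 0.23.

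The complex II total varied more from cell to cell than that of any other complex. Its SD was 113% of the mean in old and 106% in young cells, against 38.0% and 33.0% for complex I, which sums over far more genes. All 4 subunits were detected in 21 of 69 old cells (30.4%) and in 58 of 138 young cells (42.0%). None was detected in 2 old and 8 young cells. Young cells 40 to 54, which had a median of 2320 detected genes, averaged 98.6 TPM of complex II, and just 1 of those 15 cells held all 4 transcripts. Young cells 87 to 138, with a median of 5104.5 detected genes, averaged 399.4 TPM, and 32 of 52 cells held all 4. The part of depth in this spread was not tested.

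In complex III the small subunits were far more abundant than the catalytic and core proteins. Uqcrb, known as the binding protein of the complex, was at 503.0 ± 415.2 TPM in old and 514.5 ± 481.6 TPM in young cells, and Uqcr11 at 373.2 ± 359.3 TPM in old and 456.1 ± 486.9 TPM in young cells. Uqcrfs1, the Rieske iron-sulfur protein that takes part in electron transfer itself, was at 38.5 ± 116.6 TPM in old and 50.7 ± 86.2 TPM in young cells. Uqcrc1, a core protein, was detected in 46.4% of old cells (34.3% to 58.8%) and 55.1% of young cells (46.4% to 63.5%), the lowest share among the members of the complex. Cytochrome c1 (Cyc1), also a nuclear subunit of complex III, is missed by the symbol rule and is not in the totals. It was at 44.9 ± 98.1 TPM in old and 50.8 ± 164.7 TPM in young cells.

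Uqcrq, a small membrane subunit, had the lowest high-kind ratio of complex III. It ranged from 0 to 1615 TPM over old cells (median 214.9) and from 0 to 2327 TPM over young cells (median 282.0). High-kind means were 149.8 TPM in old and 354.6 TPM in young cells (-1.24), and low-kind means were 411.7 TPM in old and 414.4 TPM in young cells (-0.01). The high-kind run means were 172.9 and 98.5 TPM in old and 281.9 and 399.3 TPM in young cells. With so few runs at each age this order says little, and how many of all genes share it was not counted. Cox7a2 and Cox7b of complex IV and Atp5g1 of complex V also had lower ratios in the high than in the low kind. They were -1.23, -1.15 and -0.94 in the high kind and 0.35, -0.30 and -0.25 in the low kind.

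Complex IV has several subunits with alternative genes used in different tissues, and the beta cells used mostly the widely expressed forms. Cox4i2 (a lung form), Cox7b2, Cox8b (a heart and muscle form) and Cox8c were at 0 in every cell. Taking 3 counts as the limit that a count of 0 allows, the share could be up to 4.35% among 69 old cells and up to 2.17% among 138 young cells. Their partners were plentiful: Cox4i1 was at 238.9 ± 290.3 TPM in old and 297.9 ± 264.2 TPM in young cells, Cox7b at 111.7 ± 146.7 TPM in old and 142.3 ± 199.2 TPM in young cells, and Cox8a at 146.5 ± 129.7 TPM in old and 199.8 ± 182.1 TPM in young cells. Cox6b2, a testis form, was detected in no old and 2 young cells, 1 of which held 96.2% of its total. Cox7a1, a heart and muscle form, was detected in 4 old and 7 young cells. Ndufa4l2, which is induced by low oxygen in other cells, was detected in 1 young cell. Cox7a1 (log2 ratio 1.33) counted among the 3 members higher in old cells and Cox6b2, listed at 0 in every old cell, among the 4 lower ones, and both rest on a handful of cells.

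Cox6a2, the heart and muscle form of subunit 6a (chr7:128205435-128206366), was the exception. It ranged from 0 to 1922 TPM over old cells (median 64.7) and from 0 to 869 TPM over young cells (median 46.1), with means of 151.3 ± 290.6 TPM in old and 111.8 ± 151.9 TPM in young cells. It made up 23.7% of Cox6a transcripts in old and 17.2% in young cells, and it was the higher of the pair in 14 of 69 old and 23 of 138 young cells. Both forms occurred together in most cells, since Cox6a1 was detected in all old cells and 97.8% of young cells. Cox6a2 was detected in 76.8% of old cells (65.1% to 86.1%) and 65.2% of young cells (56.6% to 73.1%). Within the kinds the shares were 75.0% in old and 40.7% in young cells of the low kind, and 79.3% in old and 81.0% in young cells of the high kind. Old and young cells thus stood apart in detection in low-kind runs and were close in high-kind runs. The log2 ratio of the means was 0.43, and 0.24 without the highest cell of each age.

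**Figure D4:**
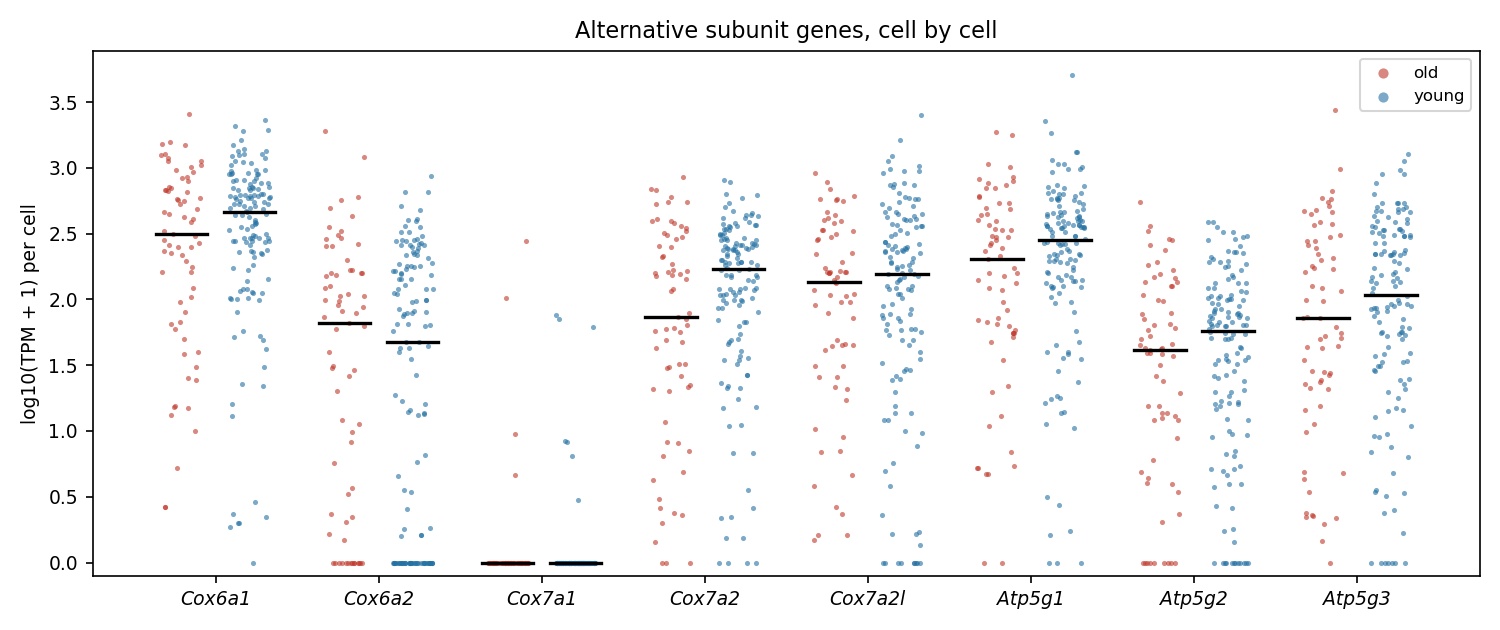
Level of alternative subunit genes in each cell as log10(TPM + 1), old cells in red to the left of young cells in blue, with black lines at medians. Cox6a2 is spread from 0 to 1922 TPM beside a high Cox6a1, and Cox7a1 lies at 0 in all but 4 old and 7 young cells.

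Cox6a1, the general form of subunit 6a, was the most abundant gene of complex IV at 486.2 ± 498.9 TPM in old and 538.9 ± 459.2 TPM in young cells, followed by Cox6c and Cox6b1. The Cox6a1 ratio was -0.86 (low kind) and 0.49 (high kind), opposite directions that left -0.15 with all cells pooled. Cox6c was detected in all 207 cells, with 430.8 ± 341.5 TPM in old and 395.1 ± 324.3 TPM in young cells. Cox7a2l, which joins complex III to complex IV in supercomplexes, was at 199.6 ± 213.2 TPM in old and 266.7 ± 348.6 TPM in young cells (-0.42). It was below 0 in both kinds.

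In ATP synthase no gene reached 1.5-fold either way with all cells pooled. Its ratios ran from -0.38 for Atp5pb, a peripheral stalk subunit, to 0.50 for Atp5c1, the rotor shaft of the F1 head. Atp5c1 was at 268.1 ± 263.2 TPM in old and 189.5 ± 247.3 TPM in young cells, and it was above 0 in both kinds (0.16 low, 0.62 high). The catalytic subunit Atp5b was at 246.9 ± 250.5 TPM in old and 234.7 ± 274.8 TPM in young cells, and its partner Atp5a1 at 115.1 ± 175.6 TPM in old and 143.8 ± 171.0 TPM in young cells. Atp5md, a small membrane subunit, was the most abundant of the complex at 473.6 ± 400.1 TPM in old and 415.2 ± 322.0 TPM in young cells, and it was detected in every cell, as was Atp5l. Reads of Atp5l may be shared with its processed copies, of which Atp5l2-ps was listed at 85.8 TPM in old and 70.6 TPM in young cells, so its level is uncertain.

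The ring that turns with the proton flow is made of 1 protein, subunit c, which 3 genes encode with different import sequences. Atp5g1 gave 53.3% of the c-ring transcripts in old and 58.0% in young cells, Atp5g3 33.9% in old and 29.9% in young, and Atp5g2 12.8% in old and 12.1% in young. Atp5g1 was the highest of the 3 in 39 of 69 old and 91 of 138 young cells, so single cells did not all follow the mean order.

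The short transcripts were the abundant ones. Over 78 members with an annotated coding transcript, the Spearman correlation of level with the longest transcript's length was -0.43, and over 10233 protein-coding genes it was -0.30. TPM already divides by length, genes are not independent replicates, and how library preparation shapes this relation was not tested. Members at lower levels were found in fewer cells, as the plot of level and detection shows.

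**Figure D5:**
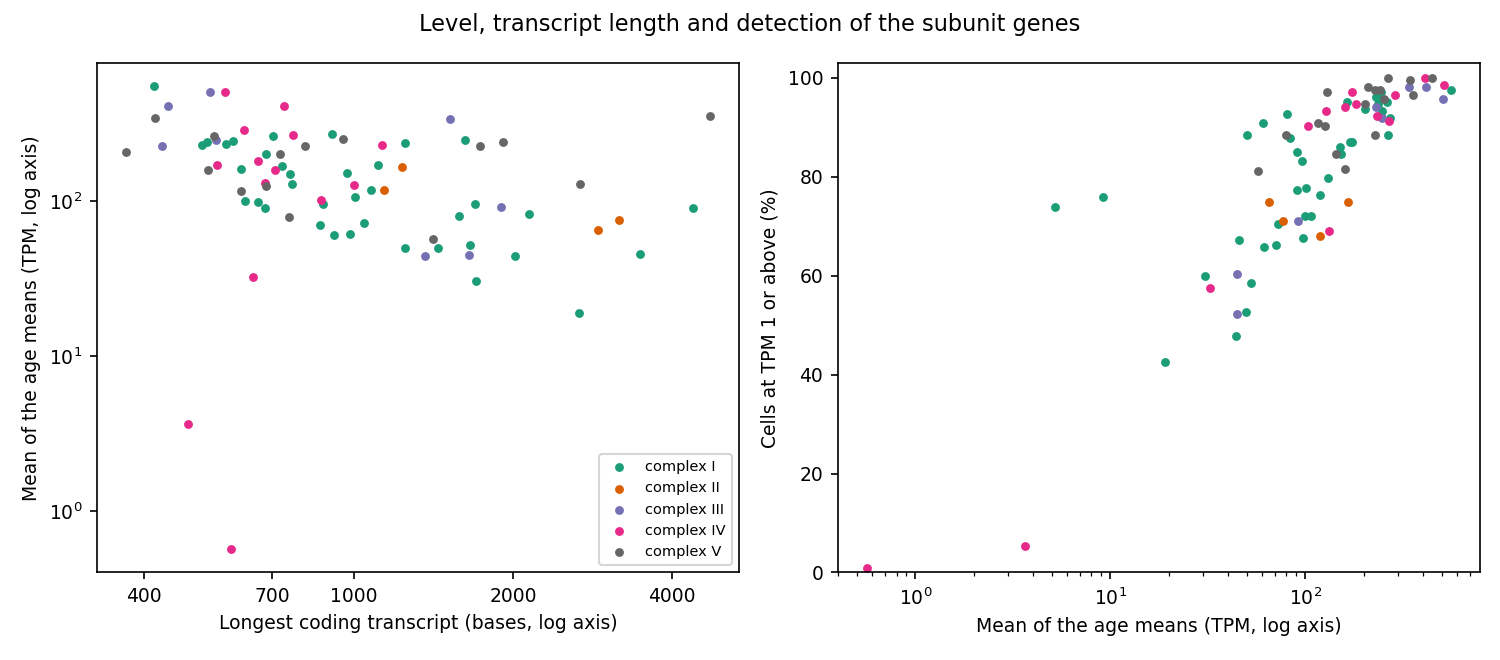
Left, mean of the old and young mean TPM of each subunit gene against the length of its longest coding transcript (both axes log). Right, percent of all 207 cells in which the gene was detected against the same mean TPM; genes above 100 TPM were mostly found in over 70% of cells.

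The 13 subunits encoded by the mitochondrial genome took another course from the nuclear ones. They summed to 128808 ± 73817 TPM in old and 95336 ± 51092 TPM in young cells (0.43), with a median log2 ratio over the genes of 0.41. The ratio of mitochondrially encoded to nuclear subunit TPM in a cell had a median of 7.44 in old (1.72 to 60.5) and 6.19 in young cells (0.666 to 34.3). Its median was 6.15 in old and 4.77 in young cells of the low kind, and 10.8 in old and 7.37 in young cells of the high kind. By run it was 9.50, 6.30, 19.0 and 5.74 in old and 4.36, 6.64, 9.99 and 5.69 in young cells, so the ages overlapped. These genes are cut from shared long transcripts and do not vary independently.

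Other mitochondrial genes were taken from lists of factors and enzymes. Of 49 assembly factors with a mean of 1 TPM or above, 11 were higher in old cells by 1.5-fold and 14 were lower, with a median of -0.14. Over all genes the shares were 16.8% higher and 26.4% lower, and the counts of every list here are to be read beside them. Tmem70, which helps assemble ATP synthase, was at 20.6 ± 86.8 TPM in old and 8.74 ± 30.1 TPM in young cells, and Foxred1, a complex I factor, at 1.52 ± 5.65 TPM in old and 10.2 ± 50.1 TPM in young cells. These genes were low and found in few cells. Citrate cycle enzymes had a median of 0.18 (6 of 19 higher, 3 lower), and mitochondrial ribosomal proteins -0.07 (9 of 78 higher, 10 lower). Carriers, electron carriers and regulators had a median of -0.29 (3 of 30 higher, 7 lower). Among them cytochrome c (Cycs) was at 25.5 ± 53.6 TPM in old and 28.6 ± 53.8 TPM in young cells, the ATP synthase inhibitor Atpif1 at 109.5 ± 96.7 TPM in old and 112.6 ± 91.9 TPM in young cells, and the uncoupling protein Ucp2 at 40.4 ± 72.6 TPM in old and 57.6 ± 88.5 TPM in young cells. Transcripts of the regulators were found in a minority of cells. Tfam, the mitochondrial transcription factor, was at 11.1 ± 43.1 TPM in old and 6.36 ± 16.9 TPM in young cells, and Yy1, named here for its motif, at 13.4 ± 55.2 TPM in old and 17.1 ± 50.2 TPM in young cells. Tfam was detected in 26.1% of old and 29.7% of young cells, and Yy1 in 27.5% of old and 37.7% of young cells. Nrf1 was detected in 13.0% of old and 20.3% of young cells, Gabpa in 8.70% of old and 21.0% of young, and Ppargc1a in 4.35% of old and 2.90% of young cells.

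Across the 207 cells the correlations between complexes depended on the scaling. On the deposited values, Pearson correlations of log2 totals between complexes ranged from 0.12 (II with V) to 0.51 (I with V). The total of all members correlated at 0.71 with that of cytosolic ribosomal proteins and at 0.24 with the number of detected genes. Once each cell was rescaled without insulin and mitochondrial genes, a setting chosen after the data were seen, the median over pairs of complexes was 0.15 in place of 0.38. Complex II then correlated with complexes I, IV and V at -0.12, -0.01 and -0.22. The correlation with detected genes was -0.38 under that rescaling and 0.45 as deviations from run means, and that with cytosolic ribosomal proteins was 0.65 after rescaling. Single members were coupled loosely. The median r over 3081 pairs was 0.15, beside 0.08 over all pairs of 2786 genes, and it was 0.15 for pairs of the same complex and 0.15 for pairs of different complexes. As deviations from the run means it was 0.10 over member pairs, beside 0.05 over all pairs, and 0.10 both within and between complexes. Pairs of cytosolic ribosomal proteins had a median r of 0.14, and of 0.13 as deviations from run means, so such coupling was not particular to the members. The 13 mitochondrially encoded genes had a median pair r of 0.57, and members with them -0.09. The nuclear total correlated with the mitochondrially encoded total at -0.26, and at 0.20 after the same rescaling. These cells share runs, depth and a fixed TPM total.

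By likeness to the mean log2 level of the members over the 207 cells, as deviations from run means, the 5 closest other genes were Iapp (r = 0.61), the ADP/ATP carrier Slc25a5 (0.58), Gm5529 (0.54), Selenok (0.53) and the malate dehydrogenase Mdh1 (0.53). At the other end stood mt-Co3 and mt-Nd4 (-0.32 each) and Lars2 (-0.39). The members' mean itself correlated at 0.77 with the number of detected genes within runs, and these correlations share that dependence.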

How the data were processed

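The TPM values come from 1 table deposited by the authors, 207 columns wide with 1 cell in each, and 0 columns went unused. Per the submitters' processing notes, CASAVA 1.8.2 and FastQC were used with genome build GRCm38 (mm10). Aligner, counter, annotation and strand handling were not given in the sources used here, so reads of near-identical copies and overlapping genes may be shared. The values hold no depth, so the precision behind a single TPM is unknown. No molecular identifiers are mentioned for these libraries.

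Of 44448 rows with NCBI Gene numbers, 39725 were matched to symbols in a RefSeq table (GRCm38.p6). A gene's ratio is log2((mean TPM of old + 1)/(mean TPM of young + 1)), which understates differences of low genes. Genes with a mean of 1 TPM or above at either age entered medians and counts. Intervals on shares of cells are exact Clopper-Pearson intervals at 95%. No cell was left out, no doublet caller was run, and 0 cells were identical. No p-value was computed, since each age is 1 sample.

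Runs were found by least-squares change points within each age on 4 measures brought to unit variance (5 nuclear noncoding RNAs, mitochondrial rRNA and tRNA, mitochondrial coding TPM, and the number of detected genes), with a shortest run of 8 cells. The kinds were split at the widest gap in mitochondrial rRNA and tRNA. Members, lists and the rule for named genes were chosen with earlier results of these data known. Named are the 3 most abundant members of each complex, the 6 highest and 6 lowest ratios among members with a mean of 10 TPM or above and detected in 25% of cells of the higher age, alternative subunit genes, the most and least detected member of each complex, list extremes, fixed regulators and the 5 closest genes by likeness. Other genes, such as Sdha, Uqcrfs1, Atp5a1, Atp5b, Atp5pb and Yy1, were added for their roles after their values were seen. Scripts (Python 3.11.15, numpy 2.4.6, pandas 2.3.3, scipy 1.17.1) were tested on simulated data.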

Additional observations from a re-analysis of the deposited data

How the results depend on the processing

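The members' median log2 ratio stayed between -0.25 and 0.10 under 22 alternatives (all genes -0.24 to 0.01), and the mitochondrially encoded median between 0.24 and 0.57. Assembly factors stayed between -0.37 and 0.00. The count of members higher in old cells by 1.5-fold was 3; it was 6 with each cell rescaled without insulin and mitochondrial genes, 9 in the low kind of runs, 7 with runs weighted equally, 7 without cells 1 to 39, 6 without cells 87 to 138, 8 without cells 139 to 158, 5 without cells 191 to 199 and 5 in cells with 3000 genes or more. The count lower in old cells was 4; it was 1 with a pseudocount of 10, 15 on mean log2 values, 9 in the low kind, 15 in the high kind, 2 without cells 55 to 86 and 12 without cells 159 to 190. Complex III was at -0.48 in the high kind and -0.49 without cells 159 to 190, complex II at 0.53 without cells 1 to 39, and complex V at -0.30 without cells 159 to 190. The median correlation between complexes, 0.38, was 0.15 after rescaling without insulin and mitochondrial genes. That rescaling, chosen after the data were seen, reversed the correlation of nuclear with mitochondrially encoded totals (0.20) and of nuclear totals with detected genes (-0.38), which was 0.45 within runs. Of 946 values of 43 named members, 914 kept within 1.5-fold and 31 moved further. The 914 include every value of Cox4i2, Cox7b2, Cox8b and Cox8c, which were at 0 in every cell and could not move. Just 1 member past 1.5-fold with all cells pooled turned its sign, Ndufa10, whose log2 ratio was -0.086 in the high kind of runs. Sign changes of any size were 73 values in 21 members, among them Ndufb5, Cox6a1 and Cox7a2. The cause of these shifts was not tested. No paired analysis was possible because cell numbers are names only and no animal is given. Cells without macrophage markers were a further alternative added after the data were seen. With 1 sample at each age, a difference between ages cannot be told apart from one between animals, chips or capture days.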
